A study of Mus musculus with 24 samples.

Results

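The genes described here encode the subunits of the mitochondrial oxidative phosphorylation system, in RNA-seq libraries of CD45+ and CD45- cells sorted from mouse ileum. Members were chosen by gene name: protein-coding genes whose symbols begin with Ndufa, Ndufb, Ndufc, Ndufs, Ndufv, Sdha to Sdhd, Uqcr, Cox4i, Cox5 to Cox8 or Atp5, and the mitochondrial genes mt-Nd, mt-Co, mt-Cytb and mt-Atp. In all, 111 annotated genes met the rule and 110 of them had a row among the 39056 genes of the count table. Of these, 97 are nuclear and 13 are encoded by the mitochondrial genome. The names also take in 14 assembly factors and accessory proteins, such as Ndufaf1 to Ndufaf8 and Sdhaf1 to Sdhaf4, which were counted apart from the 83 nuclear subunits. The 83 subunits divide into 36 of complex I, 4 of complex II, 8 of complex III, 19 of complex IV and 16 of complex V. The mitochondrial genes supply 7 subunits of complex I, 1 of complex III, 3 of complex IV and 2 of complex V.

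Complexes I and II pass electrons from NADH and succinate to ubiquinone, complex III passes them on to cytochrome c, and complex IV delivers them to oxygen. Complexes I, III and IV pump protons as they do so, and complex V, the ATP synthase, uses the returning protons to make ATP. Complex II alone is wholly nuclear encoded, while the others need proteins made from both genomes. In the intestine, absorptive enterocytes are rich in mitochondria.

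The study asked how loss of HOIL1, the product of Rbck1 and a part of the enzyme complex that builds linear ubiquitin chains, alters intestinal type 2 immunity, and whether interleukin 4 receptor alpha in the epithelium is involved. Epithelial and lamina propria cells of the ileum were combined, Peyer's patches having been removed, and live CD45+ (leukocyte) and CD45- (epithelial and stromal) cells were sorted from C57BL/6 mice (C57BL/6J by the study's methods) of both sexes, aged 9.0 to 10.3 weeks. Every mouse, controls included, carried Il4ra flox/flox alleles. In each fraction there were 4 genotypes with 3 libraries each, 24 libraries in all: Hoil1+/+ f/f (floxed alleles without Cre), Hoil1+/+ dIEC (with Vil1-cre, driven by the villin promoter of intestinal epithelial cells), Hoil1-/- f/f and Hoil1-/- dIEC. Hoil1-/- mice carried the Rbck1tm1Kiwa allele in all cells. The labels do not tie libraries to animals or join the 2 fractions of an animal, so p-values measure the spread between libraries only.

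The study set aside 3 libraries that stood apart in a principal component analysis: replicate 1 of CD45+ Hoil1-/- f/f, replicate 3 of CD45- Hoil1-/- f/f and replicate 3 of CD45+ Hoil1-/- dIEC. Results here rest on the other 21 libraries, 10 CD45+ and 11 CD45-, and values with all 24 are given where they differ. Total counts, in units of 1e6, ran from 14.9 to 76.8 in the CD45+ and from 6.03 to 68.3 in the CD45- libraries. Levels are CPM, counts per 1e6 counts, on one scale over all libraries, and levels of different genes are compared only per kilobase of exon.

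The sorted fractions carried the markers of their labels. Ptprc, which encodes CD45, lay between 345 and 755 CPM in the CD45+ libraries and between 0 and 16.1 CPM in the CD45- libraries. Rbck1 lay between 90.5 and 158 CPM in Hoil1+/+ and between 5.38 and 15.9 CPM in Hoil1-/- CD45+ libraries. In CD45- libraries the corresponding ranges were 73.3 to 110 and 2.78 to 7.29 CPM, so the genotypes did not overlap in either fraction. Il4ra in CD45- libraries lay between 45.3 and 129 CPM in dIEC and between 56.1 and 157 CPM in f/f mice. Whole-gene counts over all CD45- cells thus do not check the deletion in epithelial cells.

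A property of the sequence limits several mitochondrial genes. Nuclear copies of mitochondrial DNA on chromosomes 1 and 2 hold unprocessed pseudogenes nearly identical to them, and how reads that map to both places were counted is not given in the sources used here. The first 60 bases of mt-Co2 (subunit 2 of cytochrome c oxidase), of the chromosome 1 copy Gm28661 (chr1:24614885-24615565, minus strand, GRCm38) and of the chromosome 2 copy Gm13341 (chr2:22587291-22587962, minus strand) are shown because they show how little separates them. The beginning of mt-Nd3 (complex I) and its copy Gm28438 (chr1:24612775-24613119, minus strand) follows, from base 1 of each alignment, 5′ to 3′, with differing bases in capitals.
mt-Co2: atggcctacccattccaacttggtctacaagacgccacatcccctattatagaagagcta
Gm28661: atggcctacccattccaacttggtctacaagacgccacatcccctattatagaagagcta
Gm13341: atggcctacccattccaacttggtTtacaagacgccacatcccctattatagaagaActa
mt-Nd3: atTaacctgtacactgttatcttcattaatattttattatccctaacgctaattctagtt
Gm28438: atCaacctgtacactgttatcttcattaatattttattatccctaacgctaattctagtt
Counted from base 1, Gm13341 differs from mt-Co2 by C25T and G57A and Gm28438 from mt-Nd3 by T3C. Over the whole aligned length, mt-Co2 and Gm28661 had 0 mismatches in 681 bases, and mt-Atp6 (Gm10925), mt-Co3 (Gm28437) and mt-Nd4l (Gm10222) also had 0 mismatches with copies on chromosome 1. The table gave 60198 counts to Gm28661 and 35712 to mt-Co2, and 70597 to Gm10925 and 34015 to mt-Atp6. Of the 13 mitochondrial members, 9 had an annotated copy of at least 95% identity over at least 100 bases, and for 6 of them the copy covered at least 80% of the transcript. Such a copy was annotated for 35 of the 83 nuclear subunits and 5 of the 14 assembly and accessory proteins, and for 0 of them did it cover that much. By annotation, mt-Atp8 also overlaps mt-Atp6, and mt-Nd4l overlaps mt-Nd4, so reads in the shared bases cannot be assigned to 1 gene.

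The mitochondrial transcripts fell into 2 ranges of level. The 6 genes mt-Co1, mt-Cytb, mt-Nd1, mt-Nd2, mt-Nd5 and mt-Nd4 held 99.6% of all counts of the 13 genes. Per kilobase, and relative to mt-Co1 in the same library, the median level was 76.9% for mt-Cytb (cytochrome b of complex III), 58.0% for mt-Nd1 and 13.9% for mt-Nd5, both of complex I. The other 7 genes lay far below. mt-Nd6, the only mitochondrial member on the minus strand, had a median of 0.818% of mt-Co1, mt-Co2 0.477%, mt-Atp6 0.455%, mt-Co3 0.321%, mt-Nd3 0.235%, mt-Atp8 0.148% and mt-Nd4l 0.116%. The genes with a nuclear copy that covered at least 80% of the transcript were mt-Co1, mt-Co2, mt-Co3, mt-Atp6, mt-Nd3 and mt-Nd4l. Thus 5 of these 7 low genes had such a copy. mt-Nd6 mRNA is known to lack a long poly(A) tail, and the RNA was selected for poly(A). The part of either in these levels was not tested, and the low values are not read as transcript abundance.

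**Figure D1:**
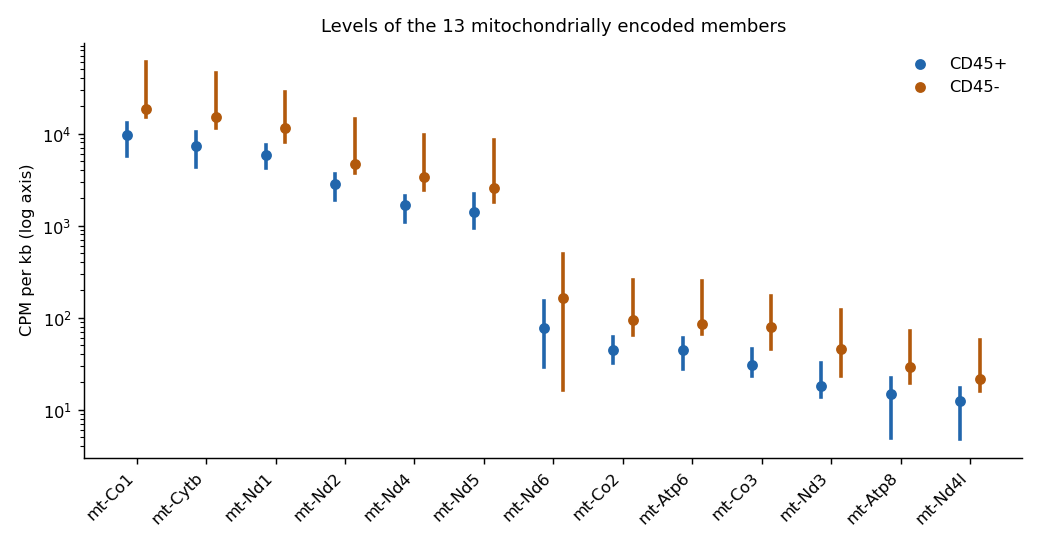
Level of the 13 mitochondrially encoded members in CPM per kilobase of exon (log axis) in the CD45+ and CD45- listed libraries; points are medians and lines run from the lowest to the highest library. The 6 genes from mt-Co1 to mt-Nd5 lie well above the other 7 in both fractions.

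Per kilobase, nuclear subunits had a median of 38.7 CPM in CD45+ and 55.1 CPM in CD45- libraries, while the 14 assembly factors and accessory proteins had medians of 3.74 and 3.65 CPM. The highest nuclear members per kilobase in CD45- libraries were Cox6a1 (398 CPM), Cox6b1 (333 CPM) and Cox8a (319 CPM), small subunits of complex IV. In CD45+ libraries they were Cox8a (224 CPM), Cox6a1 (202 CPM) and Ndufa1 (188 CPM), the last a small membrane subunit of complex I.

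The main contrast of the set lay between the fractions. Oxidative phosphorylation transcripts were lower in CD45+ than in CD45- cells in both genomes. The 13 mitochondrial genes took 1.66 to 5.14% of all counts in CD45+ libraries and 6.87 to 20.1% in CD45- libraries. The 97 nuclear members took 0.421 to 0.700% and 0.813 to 1.69%. The listed libraries of the fractions did not overlap in either share. Shares of all counts also depend on the other genes of a library, such as the immunoglobulin genes of CD45+ cells. On the CPM scale the nuclear sums overlapped, at 5060 to 9159 CPM in CD45+ and 6805 to 16225 CPM in CD45- libraries. The mitochondrial sums did not, at 23188 to 49853 and 56874 to 216970 CPM. In these bulk libraries, fewer cells of a type and less RNA per cell cannot be told apart. Among the 3 libraries set aside, the CD45+ Hoil1-/- f/f library had a mitochondrial share of 8.96% and a nuclear share of 0.881%, both inside the CD45- range.

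**Figure D2:**
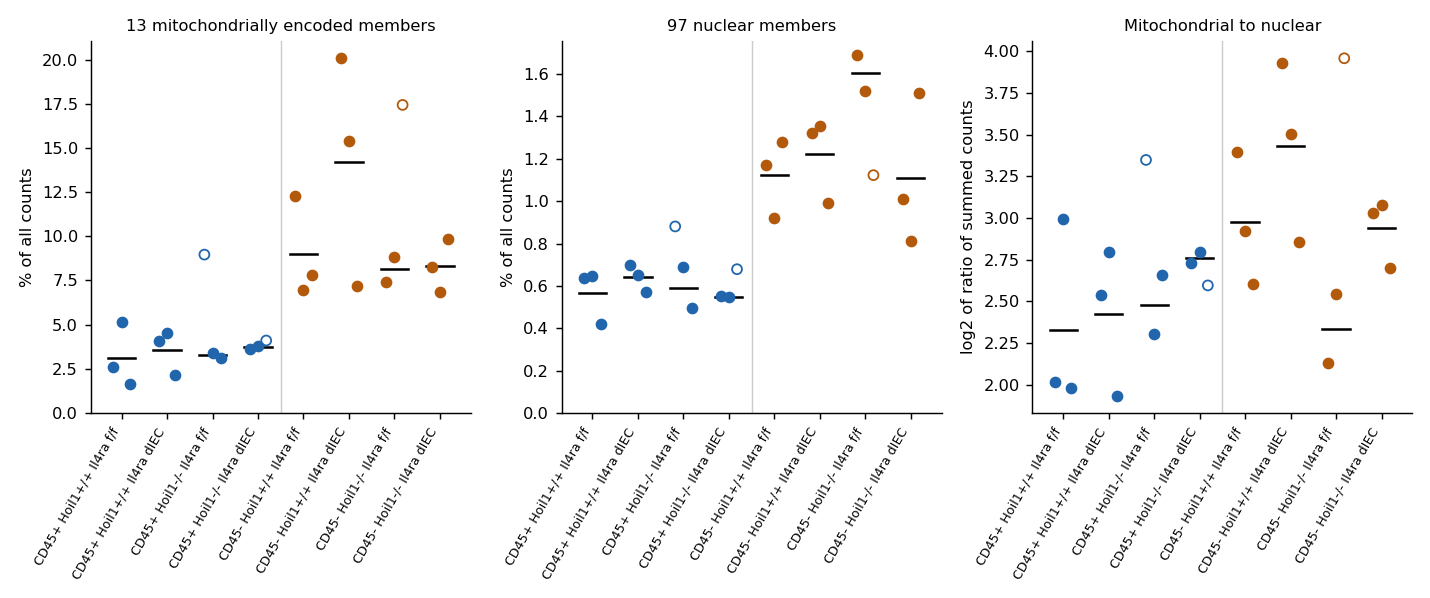
Share of all counts (%) taken by the 13 mitochondrial and the 97 nuclear members, and the log2 ratio of the former to the latter, per library in the 8 groups; filled points are the 21 listed libraries, open points the 3 set aside, and bars the means of the listed libraries. Both shares separate the fractions among the listed libraries, whereas the ratio, 1.93 to 2.99 in CD45+ and 2.13 to 3.93 in CD45- libraries, overlaps. Summed on the CPM scale (not drawn), the nuclear members overlap as well.

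Of the 110 members, 107 passed the filter on low counts. Cox7b2, Cox8b and Cox8c did not, and these are tissue-restricted isoforms of complex IV subunits. By edgeR's quasi-likelihood test at an adjusted p of 0.05, 13 of 13 mitochondrial members and 71 of 94 tested nuclear members were lower in CD45+ cells, 2 nuclear members were higher and 21 were not called. Over all 18778 genes tested, 25.1% were lower and 24.5% higher by the same rule. The median log2 fold change, CD45+ against CD45-, was -1.28 for the mitochondrial and -0.71 for the nuclear members, beside 0.03 for all genes. Every listed CD45+ library lay below every listed CD45- library for 7 of 13 mitochondrial and 5 of 97 nuclear members, where 9.44% of all genes tested did so. With all 24 libraries this held for 0 and 2 members, where 8.0% of all genes tested did so.

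By complex, 29 of 36 nuclear subunits of complex I were lower (median log2 fold change -0.63), 4 of 4 of complex II (-0.97), 8 of 8 of complex III (-0.90), 15 of 16 tested of complex IV (-0.87) and 14 of 16 of complex V (-0.93). Of the assembly and accessory proteins, 1 of 14 was lower and 1 higher, with a median of -0.26. The difference between classes was not tested. The member of this class that was lower was Atp5s, with a log2 fold change of -1.97 ± 0.74 (SE, edgeR adjusted p = 0.0363), at a median of 1.43 CPM in CD45+ libraries. The one that was higher was Sdhaf2, which attaches FAD to the catalytic subunit of complex II, with 0.39 ± 0.13 (SE, edgeR adjusted p = 0.0155).

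**Figure D3:**
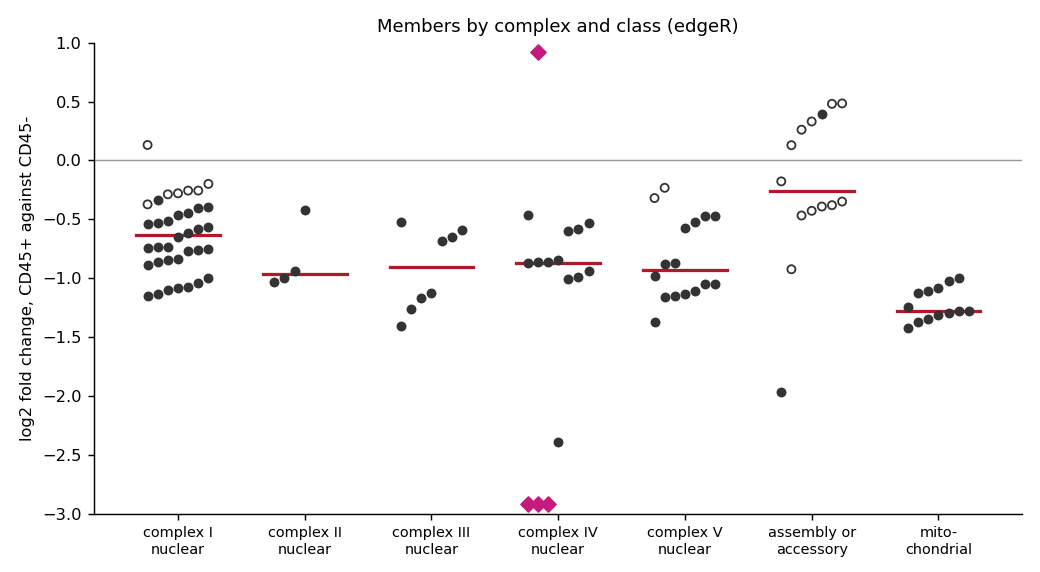
Log2 fold change, CD45+ against CD45-, of each tested member by class and complex; filled points passed an edgeR adjusted p of 0.05, open points did not, red bars are medians, and diamonds mark 4 members beyond the axis (Ndufa4l2, Cox4i2 and Cox7a1 below, Cox6a2 above). Medians run from -0.26 for assembly and accessory proteins to -1.28 for the mitochondrial genes.

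Complex I receives electrons from NADH. Ndufv1, the subunit that binds NADH and FMN, had a lowest, median and highest level of 38.3, 48.5 and 68.4 CPM in the 10 CD45+ libraries, and 69.5, 109 and 187 CPM in the 11 CD45- libraries. The listed libraries of the fractions did not overlap, but the CD45+ Hoil1-/- dIEC library set aside, at 90.9 CPM, was inside the CD45- range. The log2 fold change was -1.07 ± 0.15 (SE, edgeR adjusted p = 2.13e-05). Ndufab1, the mitochondrial acyl carrier protein, which is also a subunit of the complex, changed by -1.15 ± 0.15 on the log2 scale (edgeR adjusted p = 7.84e-06), and Ndufa8 by -0.84 ± 0.12 (edgeR adjusted p = 2.28e-05). The core subunit Ndufs3 was not called, with 26.7, 40.1 and 57.8 CPM in CD45+ and 31.2, 42.9 and 66.0 CPM in CD45- libraries (log2 fold change -0.20, edgeR adjusted p = 0.339). The 6 other nuclear subunits of the complex that were not called were Ndufs4, Ndufa1, Ndufa3, Ndufa7, Ndufa13 and Ndufc2.

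In complex II, the succinate dehydrogenase shared with the tricarboxylic acid cycle, all 4 subunits were lower. The membrane anchor Sdhc had 46.7, 57.6 and 99.2 CPM in CD45+ and 81.2, 125 and 165 CPM in CD45- libraries, ranges that overlapped at their ends, with a log2 fold change of -1.03 ± 0.16 (SE, edgeR adjusted p = 6.25e-05). The catalytic flavoprotein Sdha changed least, by -0.42 ± 0.10 (edgeR adjusted p = 0.00272). In complex III, Uqcr11, its smallest subunit, averaged 47.3 ± 14.5 CPM (SD, n = 10) in CD45+ and 123 ± 55.6 CPM (SD, n = 11) in CD45- libraries. The ranges overlapped at their ends, and the log2 fold change was -1.40 ± 0.19 (edgeR adjusted p = 1.51e-05). The core protein Uqcrc1 changed by -1.12 ± 0.16 (edgeR adjusted p = 2.34e-05).

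In complex V, the catalytic beta subunit Atp5b had 391.8, 486 and 676 CPM in CD45+ and 632, 1070.5 and 1503 CPM in CD45- libraries. The ranges overlapped slightly, and the log2 fold change was -1.14 ± 0.15 (SE, edgeR adjusted p = 1.19e-05). Atp5o and Atp5j, both of the stalk that holds the catalytic head, changed by -1.37 ± 0.19 (edgeR adjusted p = 1.80e-05) and -1.05 ± 0.13 (edgeR adjusted p = 4.47e-06). The ring subunit c is made from 3 genes with different targeting sequences, and 2 of them were called: Atp5g1 at -1.16 and Atp5g3 at -0.98, against -0.32 for Atp5g2 (edgeR adjusted p = 0.0856). Whether the 3 genes differ from each other was not tested.

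Complex IV has alternative isoforms with known tissue patterns, and here the minor isoforms separated the fractions most. The widespread forms Cox4i1, Cox6a1, Cox6b1, Cox7a2 and Cox8a had log2 fold changes of -0.94, -0.99, -1.01, -0.87 and -0.58, all called. Cox4i2, a form known to act in oxygen sensing, had a count in 2 of 10 CD45+ libraries and in 11 of 11 CD45- libraries, with mean levels of 0.139 ± 0.326 and 11.4 ± 6.23 CPM (SD), a ratio of 81.8. The CD45+ mean rested on Hoil1+/+ f/f replicate 1, at 0.999 CPM, and without it the mean was 0.0433 CPM and the ratio 262. Ndufa4l2, a relative of the complex IV subunit Ndufa4, had a count in 4 of 10 and 11 of 11 libraries, at 0.510 ± 0.695 and 34.4 ± 17.2 CPM, a ratio of 67.3. Every listed CD45+ library was below every listed CD45- library for both (edgeR adjusted p = 9.97e-05 and 7.25e-07). In the CD45+ Hoil1-/- dIEC library set aside, Cox4i2 was at 3.25 CPM, above the lowest CD45- library. Cox7a1, the form typical of heart and muscle, averaged 0.739 ± 0.705 CPM in CD45+ and 25.2 ± 25.5 CPM in CD45- libraries (edgeR adjusted p = 9.29e-04), and 1 CD45- library had no count of it.

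Cox6a2 went the other way. This heart and muscle form had a count in 9 of 10 CD45+ libraries, at 1.82 ± 1.08 CPM (SD), and in 1 of 11 CD45- libraries (edgeR adjusted p = 0.00251). The lone CD45- library with a count was Hoil1-/- dIEC replicate 3, so the ranges overlapped. At this level the value is a low count in both fractions. Cox6a2 passed the filter on low counts through the CD45+ libraries and failed it in the fit of CD45- libraries alone. The filter thus favored this direction, and no conclusion is drawn from its p-value.

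**Figure D4:**
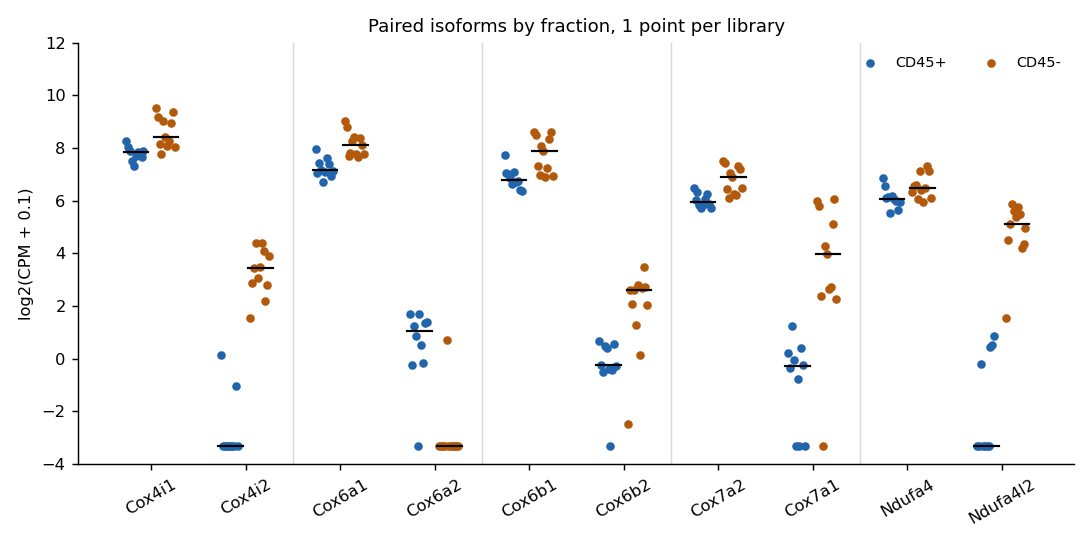
Levels of paired isoforms of complex IV and related subunits as log2(CPM + 0.1) in the listed CD45+ and CD45- libraries; each point is a library and bars are medians. Cox4i2 and Ndufa4l2 sit at the floor in most CD45+ libraries and Cox6a2 in most CD45- libraries.

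Pericytes, smooth muscle and endothelium are part of the CD45- fraction. The 7 markers of smooth muscle and pericytes, led by Acta2, summed to 14.1 to 79.0 CPM in CD45+ and 501 to 5452 CPM in CD45- libraries, and endothelial markers to 2195 to 15855 CPM in CD45- libraries. Their part in the levels of Cox4i2, Ndufa4l2 and Cox7a1 was not tested. The 4 listed CD45- libraries with the most enterocyte marker counts were Hoil1+/+ dIEC replicates 1 and 2 and Hoil1-/- f/f replicates 1 and 2. Among listed CD45- libraries they had the 4 highest levels of Cox7a1, at 34.4, 66.9, 63.5 and 55.3 CPM, and the 4 lowest of Cox4i2, at 4.45, 6.91, 2.86 and 7.22 CPM, and of Ndufa4l2, at 18.4, 20.2, 2.86 and 22.7 CPM. In the CD45- library set aside, enterocyte markers summed to 2364 CPM and Cox7a1 was at 2.81 CPM, low as in the other libraries with few such counts. It went against the order for Cox4i2, at 6.06 CPM, and Ndufa4l2, at 4.16 CPM, both low.

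mt-Co1 (chrM:5328-6872, subunit 1 of complex IV), the most abundant member, had a lowest, median and highest level of 8875, 14843 and 19946 CPM in CD45+ and 23408, 28418 and 93528 CPM in CD45- libraries. No listed CD45+ library reached the CD45- range, but the CD45+ libraries set aside did, at 35440 CPM (Hoil1-/- f/f) and 23502 CPM (Hoil1-/- dIEC), and the log2 fold change was -1.32 ± 0.25 (SE, edgeR adjusted p = 2.72e-04). Over the 13 genes the fold changes were largest for mt-Co3, at -1.42, a low gene with a nearly identical nuclear copy. They were smallest for mt-Nd6, whose 95% interval was -1.68 to -0.32 (edgeR adjusted p = 0.0240). Differences between the 13 genes were not tested. The log2 ratio of mitochondrial to nuclear counts differed by -0.42 between the fractions, against a pooled SD of 0.41 between libraries of a group. It was -0.36 when members with near-identical copies were left out. This ratio was given no test.

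The immunoglobulin genes took 12.1 to 44.0% of counts in CD45+ and at most 1.66% in CD45- libraries. When mitochondrial and immunoglobulin genes were left out of the table before scaling, the nuclear calls were again 71 lower and 2 higher, with a median of -0.70. In the Hoil1+/+ libraries alone, which are 6 of each fraction, 40 nuclear and 12 mitochondrial members were lower and 3 nuclear members higher, and the medians were -0.45 and -1.39, where 24.6% of all genes were lower.

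Promoters of nuclear members are shown for 4 genes whose levels differed between fractions, because the factors NRF1, GABP and YY1 are known to act on this set. The 180 bases before the annotated start are printed 5′ to 3′ on the strand of the gene, from RefSeq on GRCm38.p6, with motif matches in capitals. They are Cox6a1 (chr5:115348959-115349138, minus strand), Uqcr11 (chr10:80406822-80407001, minus strand), Ndufa8 (chr2:36049339-36049518, minus strand) and Cox7a1 (chr7:30183991-30184170, plus strand).
Cox6a1: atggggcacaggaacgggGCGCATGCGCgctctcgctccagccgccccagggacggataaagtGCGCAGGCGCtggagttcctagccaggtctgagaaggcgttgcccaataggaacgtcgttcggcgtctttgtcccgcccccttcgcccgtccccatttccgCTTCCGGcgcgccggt
Uqcr11: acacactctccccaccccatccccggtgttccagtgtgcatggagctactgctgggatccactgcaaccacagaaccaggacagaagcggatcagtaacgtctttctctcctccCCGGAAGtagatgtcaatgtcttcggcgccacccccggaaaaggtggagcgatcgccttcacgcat
Ndufa8: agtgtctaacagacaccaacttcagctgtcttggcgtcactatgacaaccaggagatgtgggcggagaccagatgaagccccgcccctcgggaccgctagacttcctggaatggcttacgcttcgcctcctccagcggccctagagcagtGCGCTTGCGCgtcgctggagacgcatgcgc
Cox7a1: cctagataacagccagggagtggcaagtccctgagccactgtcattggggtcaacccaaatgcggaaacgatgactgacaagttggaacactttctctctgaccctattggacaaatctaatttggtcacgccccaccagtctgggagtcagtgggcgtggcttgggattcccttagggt
Cox6a1 held 2 places that match the NRF1 letters GCGCA, any base, GCGC, one of them on both strands, and 1 match to the GABP letters CCGGAAG, Uqcr11 held a GABP match and Ndufa8 an NRF1 match, and Cox7a1 held none. A promoter window of 300 bases, 250 before to 50 after the start, was found for 78 of the 97 nuclear members. On either strand, the NRF1 letters occurred in 25.6% of them and in 4.78% of 27025 gene promoters, CCGGAAG in 25.6% and 9.12%, and the YY1 letters AAGATGGC in 9 of the 78 members and in 2.88% of all promoters. At least 1 of the 3 was present in 53.8% and 15.2%. Members with a match were lower in CD45+ cells in 30 of 42 and higher in 1, with a median log2 fold change of -0.58. Those without a match were lower in 26 of 34, with a median of -0.61.

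Genes that work beside the complexes were examined as lists, to be read against the 25.1% of all genes that were lower and the 24.5% that were higher. Of 16 genes of the tricarboxylic acid cycle, 15 were lower in CD45+ cells (median log2 fold change -0.74), among them Cs (-0.96), Ogdh (-0.90) and Mdh2 (-0.57). Of 10 electron carriers and coupling proteins, 9 were lower, among them the ADP/ATP carrier Slc25a5 (-0.94), the phosphate carrier Slc25a3 (-0.53) and the outer membrane channel Vdac2 (-0.74). The uncoupling protein Ucp2 was higher, by 1.18 ± 0.17 on the log2 scale (SE, edgeR adjusted p = 2.53e-05). Of 77 mitochondrial ribosomal proteins tested, 18 were lower and 1 higher (median -0.26), and of 32 assembly factors outside the naming rule, 4 were lower and 3 higher. The share of mitochondrial ribosomal proteins that were lower was thus near that of all genes. Of 81 cytosolic ribosomal proteins tested, 43 were higher in CD45+ cells and 1 lower (median 0.36).

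Of 25 glycolytic genes, 7 were lower and 2 higher (median -0.07), with Ldha at -1.01 and Gapdh not called at -0.13. Of 17 genes for maintenance and transcription of mitochondrial DNA, 4 were lower and 3 higher (median 0.03). In both lists the share that was lower was near that of all genes. Tfam, which packages mitochondrial DNA and starts its transcription, was at 0.14 (edgeR adjusted p = 0.509) and the mitochondrial RNA polymerase Polrmt at -0.23 (edgeR adjusted p = 0.397). The 13 regulators of mitochondrial biogenesis split evenly, 5 higher and 5 lower. The nuclear receptor Esrra (-1.02), the coactivator Ppargc1a (-3.34) and Epas1 (-3.99), which is high in endothelium, were lower, and Nrf1 (0.52), Yy1 (0.59) and the hypoxia factor Hif1a (0.99) were higher.

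Within a fraction, edgeR called 0 members in every genotype comparison made. With the Hoil1 effect averaged over both Il4ra genotypes, 0 members were called in either fraction by edgeR or by DESeq2, and DESeq2 called 0.758% of all genes in CD45+ and 1.05% in CD45- cells. In CD45+ cells edgeR called 0.00587% of all genes at an adjusted p of 0.05 and 5.85% at an unadjusted p of 0.05, and 1 of 107 members passed the latter. That member was mt-Nd6, at 15.0 and 26.9 CPM in Hoil1-/- dIEC, 42.1 and 37.2 CPM in Hoil1-/- f/f, 70.0, 78.5 and 24.5 CPM in Hoil1+/+ dIEC, and 55.2, 65.9 and 25.8 CPM in Hoil1+/+ f/f libraries. The Hoil1-/- libraries set aside were at 52.7 CPM (dIEC) and 57.2 CPM (f/f), above the other Hoil1-/- libraries and inside the Hoil1+/+ range. The genotypes overlapped, with a log2 fold change of -0.91 ± 0.38 (SE, unadjusted p = 0.0389, edgeR adjusted p = 0.783). The median was -0.18 for the nuclear and -0.02 for the mitochondrial members, beside -0.05 for all genes. With all 24 libraries these medians turned to 0.10 and 0.48. The mitochondrial share was 1.66, 2.17 and 2.57% in Hoil1+/+ f/f replicate 3, dIEC replicate 3 and f/f replicate 1, aged 9.0 to 9.1 weeks. In the other listed CD45+ libraries, aged 9.4 to 9.9 weeks, it was 3.11 to 5.14%. The CD45+ libraries set aside went against this order, with 8.96% at 9.0 and 4.10% at 9.1 weeks. The part of age was not tested.

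In CD45- cells 0 members were called for the averaged Hoil1 effect. The median log2 fold change, Hoil1-/- against Hoil1+/+, was 0.21 for the 93 nuclear members tested and -0.41 for the 13 mitochondrial members, with -0.08 for all genes. These opposite signs arose from averaging and were found in neither Il4ra genotype. The nuclear and mitochondrial medians were 0.75 and 0.18 in f/f mice and -0.34 and -1.03 in dIEC mice. edgeR called 0.0182% of all genes at an adjusted and 5.28% at an unadjusted p of 0.05. At the latter, 1 member was higher, Ndufs5 of complex I (0.50 ± 0.18, unadjusted p = 0.0188, edgeR adjusted p = 0.877), and 1 lower, mt-Nd5 (-0.89 ± 0.36, unadjusted p = 0.0322, edgeR adjusted p = 0.926). The log2 ratio of mitochondrial to nuclear counts was lower in Hoil1-/- by -0.57 in CD45- cells and higher by 0.24 in CD45+ cells (-0.30 and 0.36 with all 24 libraries), beside the SD of 0.41 between libraries of a group. A test of the Hoil1 effect between fractions called 0 members by edgeR and by DESeq2. In that test DESeq2 called 1.4% of all genes and edgeR 0.0266%, and 5.48% at an unadjusted p of 0.05. Ndufb6, Atp5j and Ndufs5, 3 of 107 members, passed the unadjusted p, all with a Hoil1 effect lower in CD45+ than in CD45- cells.

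The averaged effect combined different values in the 2 Il4ra genotypes. In f/f mice, the nuclear members mostly had positive values in the Hoil1-/- CD45- libraries, though 0 passed the adjusted threshold by edgeR. Ndufs5 had 52.8 and 51.7 CPM in the 2 listed Hoil1-/- f/f libraries, and 44.3 CPM in the one set aside, against 22.7, 24.1 and 28.0 CPM in Hoil1+/+ f/f. All 3 Hoil1-/- libraries were above the Hoil1+/+ libraries, but this gene was named with its p-value known, so the separation is no further support. The log2 fold change was 1.08 ± 0.27 (SE, unadjusted p = 0.00213, edgeR adjusted p = 0.227). Ndufv3, an accessory subunit of complex I, had 140.4 and 137 CPM against 73.0, 50.5 and 57.2 CPM, with 72.3 CPM in the library set aside, so that with it the genotypes overlapped. In this contrast 33 of 93 nuclear members were higher and 2 lower at an unadjusted p of 0.05, where 5.26% of all genes were higher. The median was 0.75 for nuclear and 0.18 for mitochondrial members and -0.17 for all genes. edgeR called 0 members (0.0365% of all genes), and DESeq2 called 3 higher, Ndufs5, Ndufv3 and Ndufa13 (3.73% of all genes). With all libraries the unadjusted count was 17 higher, where 2.58% of all genes were higher. Without Hoil1-/- f/f replicate 2, which leaves 1 library in that group, edgeR called 0 members higher and 2 lower, Ndufa4l2 and Sdhaf4, where 2.59% of all genes were lower.

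In dIEC mice the same contrast lay the other way. mt-Nd5 had 3739, 3249 and 4627 CPM in Hoil1-/- dIEC and 15511, 10373 and 5099.5 CPM in Hoil1+/+ dIEC libraries. The ranges did not overlap, but the gene was named with its p-value known, so this separation is no further support. The log2 fold change was -1.41 ± 0.48 (SE, unadjusted p = 0.0143, edgeR adjusted p = 0.603). The median was -0.34 for nuclear members and -1.03 for mitochondrial members, with 0.06 for all genes. edgeR and DESeq2 each called 0 members, with 0.00608% of all genes called by edgeR and 0.881% by DESeq2. At an unadjusted p of 0.05 edgeR called 7.66% of all genes. At that threshold mt-Nd5 and mt-Nd3 were lower and 0 members higher.

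The interaction, the Hoil1 effect in dIEC minus that in f/f, called 0 members in CD45- cells by edgeR (0.0% of all genes). At an unadjusted p of 0.05, 43 nuclear members were lower and 2 higher, and 1 mitochondrial member lower, where 9.44% of all genes were lower. DESeq2 called 10 members lower and 1 higher (8.91% of all genes called). The medians were -1.10 for nuclear and -1.18 for mitochondrial members, beside 0.29 for all genes. For Sdhb, the iron-sulfur subunit of complex II, the CD45- levels were 302 and 197 CPM in Hoil1-/- f/f, 137, 67.6 and 94.1 CPM in Hoil1+/+ f/f, 214, 218 and 82.1 CPM in Hoil1+/+ dIEC, and 89.9, 65.9 and 128 CPM in Hoil1-/- dIEC. Replicate 3 of Hoil1+/+ dIEC was below the other 2 of its group. The Hoil1-/- f/f library set aside was at 96.5 CPM, inside the Hoil1+/+ f/f range, so that with it these genotypes overlapped. The interaction of Sdhb was -2.18 ± 0.66 (SE, unadjusted p = 0.00704, edgeR adjusted p = 0.144). Without that replicate, edgeR called 17 members lower, where 3.98% of all genes were called lower.

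The CD45- libraries differed in the sums of cell markers and of dissociation response genes along the same lines. In bulk libraries a difference of sample handling in the latter cannot be told apart from cell content. The 12 enterocyte markers summed to 40283, 42765 and 2435 CPM in Hoil1+/+ dIEC, 14912, 1535 and 2306 CPM in Hoil1+/+ f/f, 1674, 687 and 14778 CPM in Hoil1-/- dIEC, and 35686 and 26532 CPM in Hoil1-/- f/f libraries. The nuclear share of counts was 1.32, 1.36 and 0.991%, then 1.17, 0.920 and 1.28%, 1.01, 0.813 and 1.51%, and 1.69 and 1.52% in the same order. The 5 highest nuclear shares were all among the 6 libraries with the most enterocyte marker counts. The mitochondrial share was 20.1, 15.4 and 7.18%, then 12.3, 6.98 and 7.79%, 8.24, 6.87 and 9.84%, and 7.40 and 8.85%. The 2 Hoil1-/- f/f libraries thus had high enterocyte marker counts without the high mitochondrial shares of Hoil1+/+ dIEC replicates 1 and 2. The library set aside, also Hoil1-/- f/f, had 2364 CPM of enterocyte markers and a mitochondrial share of 17.4%. Its nuclear share was 1.12%, inside the Hoil1+/+ f/f range. Age ran with the mitochondrial share, which was 12.3 to 20.1% in CD45- libraries of mice aged 9.7 to 10.3 weeks, the library set aside included. In CD45- libraries of mice aged 9.0 to 9.6 weeks it was 6.87 to 9.84%. Of the enterocyte markers, 10 of 12 had a lower interaction at an unadjusted p of 0.05 by edgeR, and 6 of 7 smooth muscle and pericyte markers a higher one. The 10 genes of the dissociation response, led by Egr1, which are known to be induced when tissue is digested, summed to 2259 and 2982 CPM in Hoil1-/- f/f and to 11437, 18642 and 8798 CPM in Hoil1+/+ f/f libraries, with 4291 CPM in the library set aside. They summed to 5337, 6056 and 12616 CPM in Hoil1+/+ dIEC and to 8064, 9782 and 7381 CPM in Hoil1-/- dIEC libraries. At an unadjusted p of 0.05 by edgeR, 6 of 10 were lower in Hoil1-/- f/f than in Hoil1+/+ f/f, and 8 of 10 had a higher interaction. For the f/f contrast, 2161 of 16453 genes passed this threshold, 865 of them higher and the rest lower. For the interaction 3409 passed, 1553 of them lower and the rest higher. The 4 nuclear retained RNAs, led by Malat1, summed to 1583 and 2096 CPM in Hoil1-/- f/f and to 574, 622 and 343 CPM in Hoil1+/+ f/f libraries, and to 2561, 2338 and 678 CPM in Hoil1+/+ dIEC and 869, 1293 and 1228 CPM in Hoil1-/- dIEC libraries. The highest values of these RNAs were thus in Hoil1+/+ dIEC replicates 1 and 2. Goblet cell markers summed to 45643 and 29761 CPM in Hoil1-/- f/f, 28903, 4279 and 6117 CPM in Hoil1+/+ f/f, 19897, 19509 and 5087 CPM in Hoil1+/+ dIEC, and 6762, 2054 and 20624 CPM in Hoil1-/- dIEC libraries. Tuft cell markers summed to 520 and 757 CPM in listed Hoil1-/- f/f and to 26.9 to 66.6 CPM in the other listed CD45- libraries. Endothelial markers summed to 2195 and 4224 CPM in listed Hoil1-/- f/f and to 3385 to 15855.5 CPM in the other listed CD45- libraries. In the library set aside the nuclear retained RNAs summed to 1064 CPM and the goblet cell markers to 7081 CPM. Its tuft cell markers summed to 54.8 CPM and its endothelial markers to 7974 CPM. The part of cell content, of sample handling and of age in the genotype values was not tested.

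**Figure D5:**
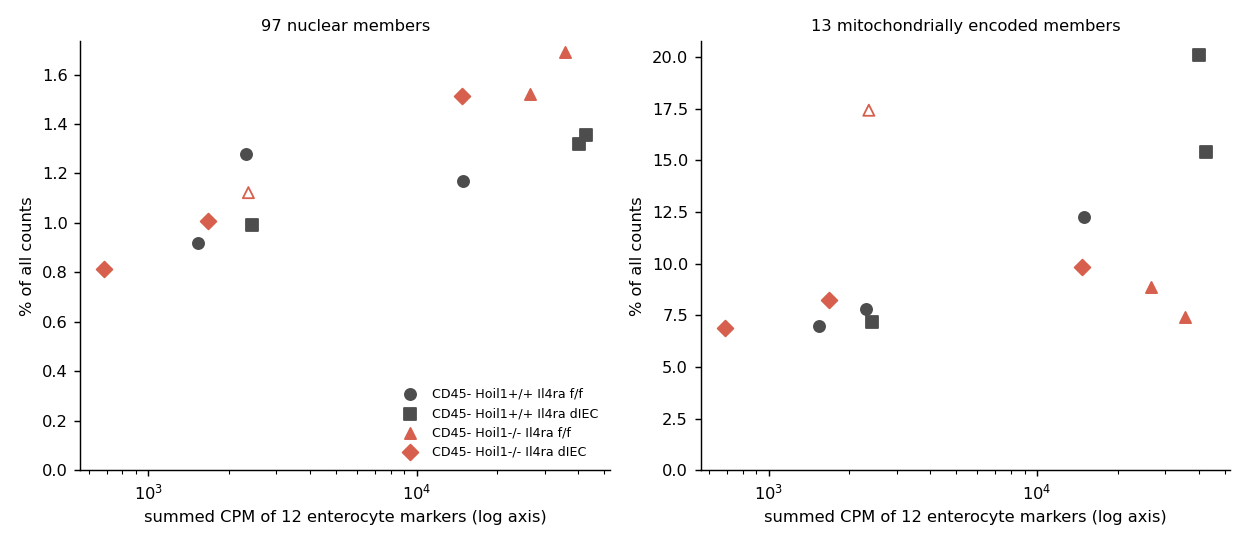
Share of counts (%) of the nuclear and of the mitochondrial members in each CD45- library against the summed CPM of 12 enterocyte markers (log axis); symbols give the genotype and the open triangle the library set aside. The 2 listed Hoil1-/- f/f libraries have the highest nuclear shares, 1.69 and 1.52%, while the one set aside is at 1.12%. Hoil1+/+ dIEC replicate 1 has the highest mitochondrial share, 20.1%.

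The Il4ra comparison, dIEC against f/f averaged over Hoil1, gave mostly negative values for nuclear members in CD45+ cells, although Vil1-cre acts in epithelial cells. Ndufs8, a core iron-sulfur subunit of complex I, had 106, 63.4 and 78.5 CPM in Hoil1+/+ f/f and 85.2 and 90.9 CPM in Hoil1-/- f/f libraries, against 50.0, 58.9 and 58.4 CPM in Hoil1+/+ dIEC and 45.2 and 45.4 CPM in Hoil1-/- dIEC libraries. All 5 f/f libraries were above all 5 dIEC libraries, but Ndufs8 was named with its p-value known, so the separation is no further support. The dIEC library set aside was at 99.5 CPM, inside the f/f range. The log2 fold change was -0.75 ± 0.17 (SE, unadjusted p = 0.00123, edgeR adjusted p = 0.221). Ndufa1 (-0.69) and Ndufb8 (-0.66), both accessory subunits of complex I, came next. Il4ra itself was at 182 to 296 CPM (median 272) in the listed dIEC and at 89.3 to 271 CPM (median 108) in the listed f/f CD45+ libraries, ranges that overlapped, with a log2 fold change of 1.09 ± 0.28 (SE, unadjusted p = 0.00288, edgeR adjusted p = 0.283). It was at 104 CPM in the dIEC and 155 CPM in the f/f library set aside. The part of this difference in the member values was not tested.

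In this comparison 28 of 94 nuclear members were lower and 0 higher at an unadjusted p of 0.05, 17 of them among the 36 subunits of complex I, where 5.36% of all genes were lower. With all libraries the count was 12, where 2.93% of all genes were lower. edgeR called 0 members (0.00587% of all genes), and DESeq2 called 4 lower, Ndufs8, Ndufa1, Atp5o and Atp5j2 (1.95% of all genes). The median was -0.36 for nuclear members, -0.22 for mitochondrial members and -0.01 for all genes. Plasma cell markers summed to 20204 to 50112 CPM in listed f/f and 9149 to 16696 CPM in listed dIEC CD45+ libraries, with no overlap, and to 15852 CPM in the f/f and 41432 CPM in the dIEC library set aside. By edgeR, 6 of 8 of these markers were lower at an unadjusted p of 0.05. Mast cell and eosinophil markers summed to 521 to 1646 CPM in listed f/f and 208 to 622 CPM in listed dIEC CD45+ libraries, ranges that overlapped. They summed to 1267 CPM in the f/f and 1452 CPM in the dIEC library set aside. The part of either marker list in the values was not tested. With immunoglobulin and mitochondrial genes left out, 32 nuclear members were lower at an unadjusted p of 0.05, with a median of -0.37, where 5.14% of all genes were lower.

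In CD45- cells the Il4ra comparison called 0 members by edgeR (0.0% of all genes) and by DESeq2 (0.936%), and 0 at an unadjusted p of 0.05, where 5.9% of all genes passed. The smallest p belonged to Ndufv1 (-0.45 ± 0.23, unadjusted p = 0.0773, edgeR adjusted p = 0.814). The median was 0.35 for mitochondrial members and -0.18 for nuclear members, with 0.06 for all genes. The interaction in CD45+ cells called 0 members by edgeR (0.0% of all genes) and by DESeq2 (0.928%). At an unadjusted p of 0.05, which 7.01% of all genes passed, 2 members were lower, Ndufa10 (-0.71 ± 0.29, unadjusted p = 0.0362, edgeR adjusted p = 0.701) and Ndufa4l2, whose levels were at or near 0 in these libraries.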

How the data were processed

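RNA was selected for poly(A), amplified and sequenced in pairs. The deposited values are raw counts per gene, 1 column per library, which the authors made by adapter trimming (cutadapt), STAR alignment to the mm10 (GRCm38) genome and featureCounts. Tool versions and the treatment of multi-mapping and stranded reads are not given in the sources used here. No other columns of sample values were left over (0). Of 39056 gene identifiers, 38872 matched GENCODE M21, and 15867 genes had no count.

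Counts were tested with edgeR 4.0.16 in R 4.3.3: TMM scaling, genes with at least 10 counts by filterByExpr (total of at least 15), quasi-likelihood tests and Benjamini-Hochberg adjustment over all genes tested, with calls at 0.05. The fractions were compared in 1 fit of the 8 groups and the genotypes in a fit per fraction, on the 21 libraries the authors kept. Depth ranged from 6.03 to 76.8 in units of 1e6 counts. Alternatives were all 24 libraries, RLE size factors, no filter, DESeq2 1.42.0, removal of mitochondrial and immunoglobulin genes, Hoil1+/+ libraries alone for the fractions, and leaving out each library. The scripts were tested on simulated data. Copies were found with blastn 2.17.0 and promoters in RefSeq tables, and figures were drawn with matplotlib 3.10.9 in Python 3.11.15. Named genes were drawn from the 10 members with the smallest p-values in each direction (5 where none was called), the core subunits, the paired isoforms and the mitochondrial genes, and others named were chosen after their values were seen. The members and lists were chosen with earlier results of these data known.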

Additional observations from a re-analysis of the deposited data

How the results depend on the processing

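Counts of members called, the medians between the fractions and the mitochondrial to nuclear ratios were recomputed under each alternative. Of these values, 308 stayed within 1.5 times the count, or within 1 SD between libraries, 9 counts rose by more and 1 fell by more. Many of the genotype counts were 0 in the main fit and 0 again, which this rule takes as unchanged. For the ratio the SD of 0.41 was larger than the Hoil1 difference of 0.24 in CD45+ cells. The 308 is thus no measure of how stable the genotype values were. The fraction comparison had 86 members called (49.6% of all genes), 70 with all libraries (50.5%), 88 with RLE size factors (49.3%), 77 with no filter on low counts (39.6%), 89 by DESeq2 (52.2%) and 74 to 86 when 1 library was left out (41.8 to 50.3%), but 55 in the Hoil1+/+ libraries only (46.3%), which are fewer. Its medians, with 1 library left out, stayed between -0.74 and -0.64 for nuclear and between -1.35 and -1.16 for mitochondrial members. By DESeq2, 4 members were called for Il4ra in CD45+ cells (1.95% of all genes), 11 for the interaction in CD45- cells (8.91%) and 3 for Hoil1 in f/f CD45- cells (3.73%), against 0 by edgeR. The cause was not tested. With 1 library left out, edgeR called 0 to 1 members for Hoil1 in CD45- cells, 0 to 1 for Il4ra in CD45- cells, 0 to 2 for Hoil1 in f/f CD45- cells, 0 to 17 for the interaction in CD45- cells and 0 to 1 for the Hoil1 effect between fractions. The 17, all lower, came without CD45- Hoil1+/+ dIEC replicate 3, where 3.98% of all genes were called lower. The single calls came without CD45- Hoil1-/- f/f replicate 2 (0.988, 1.26 and 1.05% of all genes called), as did the 2 for Hoil1 in f/f CD45- cells, both lower (2.71%), and 2 for the interaction, both higher (4.13%). This leaves 1 library in that group, assumed to vary like the others. The medians of the genotype effects were examined apart from these counts, as alternatives added after seeing the data. With all libraries, the nuclear and mitochondrial medians of the Hoil1 effect in CD45+ cells turned sign (to 0.10 and 0.48), as did the nuclear medians of the Hoil1 effect between fractions (from -0.35 to 0.01) and of the interaction in CD45+ cells (from -0.14 to 0.04). With 1 library left out, the mitochondrial median of the Hoil1 effect in CD45+ cells ran from -0.12 to 0.10 and turned sign for 4 of 10 libraries. The medians of the Il4ra effect in both fractions, and in CD45- cells those of the Hoil1 effect, averaged and in each Il4ra genotype, and of the interaction, kept their sign under every setting, but several moved by more than 1.5 times with 1 library left out. In CD45- cells the averaged Hoil1 effect ran from 0.03 (without Hoil1-/- dIEC replicate 3) to 0.29 for nuclear and from -0.61 to -0.21 (without Hoil1+/+ dIEC replicate 1) for mitochondrial members. In f/f mice it ran from 0.62 to 0.90 and from 0.01 to 0.54, and in dIEC mice from -0.64 to -0.15 and from -1.40 to -0.62. The Il4ra effect in CD45- cells ran from -0.35 (without Hoil1-/- dIEC replicate 3) to -0.05 (without Hoil1+/+ dIEC replicate 3) for nuclear and from 0.19 (without Hoil1+/+ dIEC replicate 1) to 0.55 for mitochondrial members. In CD45+ cells it ran from -0.42 to -0.25 and from -0.31 to -0.09 (without Hoil1+/+ f/f replicate 2). The interaction in CD45- cells ran from -1.38 to -0.91 and from -1.60 to -0.77, and the nuclear median of that in CD45+ cells from -0.33 (without Hoil1+/+ f/f replicate 1) to -0.04 (without Hoil1+/+ f/f replicate 2). The mitochondrial to nuclear log2 ratio between the Hoil1 genotypes kept its sign with any 1 library left out. Its size in CD45+ cells depended on single libraries. In CD45+ cells it was 0.24, and 0.12 to 0.41 with 1 library left out: 0.12 without Hoil1+/+ dIEC replicate 3, 0.15 without Hoil1-/- f/f replicate 3, 0.16 without Hoil1+/+ f/f replicate 3 and 0.41 without Hoil1+/+ f/f replicate 2. In CD45- cells it was -0.57, and -0.71 to -0.44 with 1 library left out, but -0.30 with all libraries. Depth limits levels under that of 3 counts, which was at most 0.416 CPM in any library. No paired analysis was possible because the labels carry no replicate numbers, those used here being sample order within a group, and do not tie libraries to animals.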
